A study of Rattus norvegicus with 8 samples.

Results

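The genes described here belong to the Notch pathway: the transcriptional repressors Hes1, Hes5, Hey1 and Hey2, the receptors Notch1, Notch2 and Notch3, and the ligands Dll1, Dll3 and Jag1. They were selected by gene symbol from the array, with earlier results of the same comparison known, and make up 10 of the 35250 gene names and 11 of the 43379 non-control spots. Because the choice was made with this contrast in view, their differences between the groups are a description and no p-value is given for them.

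Total RNA from the dentate gyrus (DG) of 8 adult female Sprague-Dawley rats was compared, all ovariectomized (OVX) and all having undergone status epilepticus (SE) induced by kainic acid, an agonist of kainate-type glutamate receptors. The 4 COS rats received oil and the 4 CES rats estradiol benzoate replacement, which the labels give as 4 doses of 2 µg at intervals of 24 h, with 2 of them before SE and 2 after it, 16 mg/kg of kainic acid, and SE stopped by pentobarbital after 5 h. The methods of the study describe the dose of kainic acid, the agent that stopped SE and the timing of estradiol differently. The interval between hormone and tissue is thus not settled here. For the length of SE the methods require at least 2 h of continuous seizures. They place tissue collection both at 24 h after SE and at 2 h after continuous seizures began. The time from SE to tissue is therefore not settled either. Rats without SE were not analysed here, and no value below compares SE with its absence. Each array carried a pair of rats of the same group, replicates 1 and 2 or 3 and 4, with the odd-numbered rats labeled with Cy3 and the even-numbered with Cy5. All 4 arrays lay on a single slide, so differences between arrays of different groups and differences between groups cannot be told apart except through the spread of the 2 arrays within each group.

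In Notch signaling a membrane-bound ligand on one cell binds the receptor on its neighbor, the receptor is cut by proteases, and its intracellular domain enters the nucleus and joins the DNA-binding protein Rbpj. Hes and Hey genes are the classic targets, and their proteins repress proneural genes. In the DG this circuit is known for holding neural stem cells undifferentiated, while astrocytes and vascular cells also use it.

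Detection was read from the scanner software's mark for a signal well above background in the channel of each rat. Hes1, Hey1, Notch3, Dll3 and Jag1 carried the mark in all 4 COS and all 4 CES rats. Hes5 carried it in 2 of 4 COS rats, both labeled with Cy5, and in 4 of 4 CES rats. Of the Hey2 probes, the one nearer the start of the transcript was marked in 3 COS and 4 CES rats and the other in 2 COS and 3 CES rats. Dll1 was marked in 3 rats of each group. Notch1 was marked in 2 rats of each group, again those labeled with Cy5. Notch2 was marked in 0 COS rats and 2 CES rats, also those labeled with Cy5. In dissected tissue, fewer cells of a type and less RNA per cell cannot be told apart.

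Levels below are log2 of the background-subtracted signal relative to the median over the valid spots of the same channel, where a valid spot has a foreground of at least 2 times its background. A value of 0 is thus the channel median, and levels of different probes are not set against each other. Differences are CES minus COS estimated by limma, with the dye in the model and a correlation allowed between rats sharing an array. That correlation was estimated at −0.0065 over all genes. Sharing an array therefore had almost no weight in the fit, and the rats were in effect treated as independent. A gene is called when the two-sided Benjamini-Hochberg adjusted p over all 21372 gene names quantified is under 0.05. By this rule 28.3% of all gene names were lower in CES and 5.79% higher, and the median difference over all of them was −0.25. Of the 10 Notch pathway genes 1 was called lower and 1 higher, 8 were not called, and their median difference was −0.09. Against the median of −0.25 over all gene names that is a shift of 0.16.

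The called genes were Hes5, higher in CES, and Jag1, lower in CES. Separation without overlap is another description: the 4 CES values lay above the 4 COS values for 1.61% of all gene names and below them for 19.8%, and among the 10 genes Hes5 alone separated, with CES above COS.

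The probes for 3 of the repressors are shown because the contrast within the family turns on them. Each is a 60-base oligonucleotide, printed as the files give it, whose first base lies at position 334 (Hes1), 341 (Hes5) and 460 (Hey1) of the transcript.
Hes1: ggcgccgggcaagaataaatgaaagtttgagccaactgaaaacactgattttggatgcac
Hes5: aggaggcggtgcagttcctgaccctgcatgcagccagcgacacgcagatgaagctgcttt
Hey1: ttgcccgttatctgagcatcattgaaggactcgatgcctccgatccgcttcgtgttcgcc
The files place them on rn4 at chr11:72605138-72605197 (minus strand), chr5:171764386-171764445 (plus strand) and chr2:95175952-95176011 (plus strand). Their GC content was 45%, 60% and 55%.

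Hes5, a repressor that mediates Notch signals in neural progenitors and is also expressed by astrocytes, had levels of −1.16, −1.77, −1.18 and −2.58 in COS replicates 1 to 4. In the CES rats it stood at 1.71, −1.08, 1.26 and 1.13. CES replicates 1, 3 and 4 were well above every COS rat, whereas CES replicate 2 was only just above the highest COS rat. The means were −1.67 ± 0.67 in COS and 0.75 ± 1.25 in CES (SD, n = 4), and the difference was 2.43 with a standard error of 0.41. It was 2.66 between the Cy3 rats and 2.20 between the Cy5 rats, and 2.92 without CES replicate 2. In another setting, normexp background correction with an offset of 50 was followed by loess within and Aquantile between arrays, which aligns the intensity distributions. In this setting, named loess below, the difference was 1.61 and still called. It was 1.45 and not called under normexp correction with channel median scaling, and 2.79 under quantile normalization without normexp. Signals behind these levels were low in COS, at 105 to 168 scanner units above background, against 294 to 1082 in CES. The array of CES replicates 3 and 4 differed by 0.88 from that of CES replicates 1 and 2. Between the matching COS arrays the difference was −0.41. Hes5 was called higher in 20 of the 21 limma settings in which it could be fitted, normexp background correction being the exception, and its difference ran from 1.45 to 2.95.

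Hes1, the family member that the same receptors activate in many tissues, showed no comparable difference. COS replicates 1 to 4 had levels of −0.10, −0.61, 0.33 and −0.78, and the CES rats −0.23, −0.76, −0.17 and −0.61. The groups overlapped throughout, and the rats sorted by dye, with every Cy5 rat below every Cy3 rat. The difference was −0.15 with a standard error of 0.17 and was not called, and the sign turned under loess (0.13), quantile normalization, scaling over spots valid in all rats and the deposited log2 table, without a call. The same sorting by dye held for 5 of the 10 genes (Hes1, Notch1, Notch2, Dll1 and Dll3) and for 27.1% of all gene names. The dye was balanced between the groups and is a term in the model.

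Hey1, a related repressor of neural and vascular cells, had levels of −0.08, −0.39, 0.14 and −0.66 in COS and of 0.49, −0.37, 0.62 and 0.23 in CES. CES replicates 1, 3 and 4 lay above all COS rats and CES replicate 2 lay among them, so the groups overlapped. The difference was 0.48 with a standard error of 0.18 and was not called. Hey1 was called higher after loess, at 0.56, and in 7 of 23 limma settings in all, one of which leaves out CES replicate 2 and gave 0.61. A transcript that the files list as TC625542 and describe as similar to canine HEY1 lies at chr2:95177543-95177602 of rn4, downstream of the Hey1 probe on the same strand. It was singled out after its values were seen. Its levels were 3.38, 3.14, 3.54 and 3.08 in COS and 4.26, 3.46, 4.41 and 4.24 in CES. Again only CES replicate 2 fell within the COS range. The difference was 0.81 with a standard error of 0.19, given as a description without a p-value.

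Hey2, which takes part in vascular and cardiac development, was measured by a pair of probes that disagreed. Their mean signal gave −0.73, −1.02, −0.35 and −1.73 in COS and −0.99, −1.30, 1.18 and −0.46 in CES, a difference of 0.57 with a standard error of 0.42 that was not called. With the probe at base 997 of the transcript the difference was −0.11, and its CES values of −0.56, −0.70, −0.15 and −0.95 all lay within the COS range of −1.33 to 0.00. With the probe at base 2284 the difference was 1.16, from −1.85, −1.88, −0.79 and −2.30 in COS and −1.61, −2.33, 1.86 and −0.09 in CES. The rise on that probe was carried by CES replicates 3 and 4, which shared an array, and that array exceeded the other CES array by 1.50 in the gene's mean level. The probe at base 2284 has a GC content of 23.3%, against 53.3% for the probe at base 997. The direction for Hey2 turned when the brightest probe alone was used (−0.11) and with a stricter filter on dim spots.

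**Figure D1:**
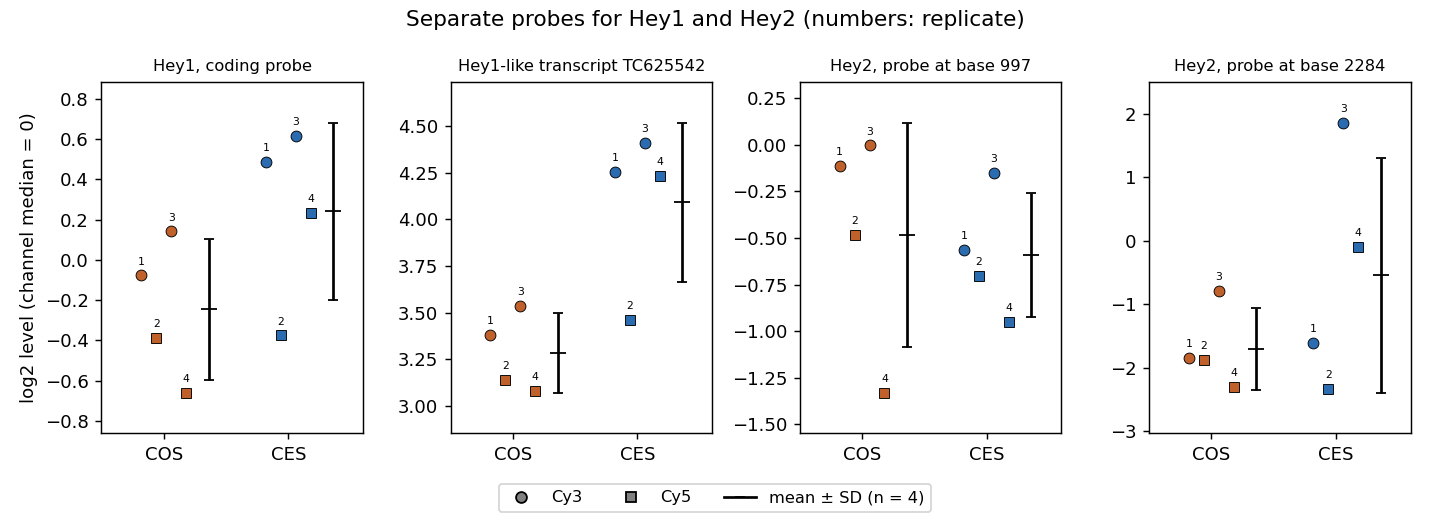
Log2 level (channel median at 0) of the Hey1 probe, of the HEY1-like transcript TC625542 and of both Hey2 probes in each COS and CES rat, with the mean and SD (n = 4) beside the points and the replicate number above them. On the first and second panels CES replicate 2 sits with the COS rats, and on the last panel CES replicates 3 and 4 stand above all others.

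The promoters of Hes1, Hes5 and Hey2 are given because these genes share a candidate Rbpj element while their levels differed in behavior. Each sequence holds the 250 bases before the transcription start (RefSeq, GRCr8), 5′ to 3′ on the gene's strand, and capitals mark GTGGGAA, searched on both strands.
Hes1: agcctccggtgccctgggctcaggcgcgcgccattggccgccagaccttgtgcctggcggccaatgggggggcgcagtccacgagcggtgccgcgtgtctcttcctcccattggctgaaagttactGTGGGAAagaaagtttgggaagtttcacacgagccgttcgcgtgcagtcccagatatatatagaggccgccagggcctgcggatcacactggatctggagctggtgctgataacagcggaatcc
Hes5: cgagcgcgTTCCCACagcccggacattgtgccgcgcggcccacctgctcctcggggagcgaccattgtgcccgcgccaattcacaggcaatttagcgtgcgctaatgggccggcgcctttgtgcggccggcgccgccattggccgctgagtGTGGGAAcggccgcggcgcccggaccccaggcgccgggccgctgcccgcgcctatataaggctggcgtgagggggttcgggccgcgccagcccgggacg
Hey2: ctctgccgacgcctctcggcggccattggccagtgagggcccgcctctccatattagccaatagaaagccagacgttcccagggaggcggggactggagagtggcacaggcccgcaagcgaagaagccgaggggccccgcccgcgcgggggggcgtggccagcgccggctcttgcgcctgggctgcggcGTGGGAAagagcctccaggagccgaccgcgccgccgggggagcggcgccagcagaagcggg
They lie at chr11:84213046-84213295 (minus strand), chr5:170804327-170804576 (plus strand) and chr1:28640850-28641099 (plus strand). GTGGGAA began 124 bases before the start of Hes1, 99 bases before that of Hes5 and 61 before that of Hey2, and the Hes5 window held a second copy on the opposite strand 242 bases before the start. These letters occurred in 5.27% of the 33469 promoter windows of the table, and also in that of Dll1, 185 bases before its start on the opposite strand. The windows of Notch1, Notch2, Notch3, Dll3 and Jag1 held no match. A match is a description of the letters and no evidence of binding. Of the 10 genes, those with a match were Hes5, which was called, and Hes1, Hey2 and Dll1, which were not. Outside the 10 genes, only the windows of Rbpj, Hes6, Hes7 and Heyl of the pathway list were read singly. Hes7 held a match 23 bases before its start and was not called, at 0.38. Those of Rbpj, Hes6 and Heyl held no match.

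Among the receptors none was called. Notch3, the receptor of pericytes and vascular smooth muscle, had levels of 5.12, 5.02, 5.73 and 5.24 in COS and of 4.72, 5.20, 5.39 and 4.97 in CES. The groups overlapped and the difference was −0.21 with a standard error of 0.21. Notch1, the receptor best known from neural stem cells, had levels of −1.34, −1.81, −0.89 and −2.34 in COS and −1.61, −2.17, −1.12 and −2.34 in CES, a difference of −0.22 with a standard error of 0.20. Only its Cy5 rats were well above background, and the groups overlapped. Notch2, a receptor shared by glial and progenitor cells, had no COS rat and 2 of 4 CES rats marked as above background. The marked rats, both Cy5, had signals of 91 and 89 scanner units above background, against 86 and 118.5 in the unmarked Cy5 COS rats. The marks therefore do not show a higher level in CES. The COS level of Notch2 is only a bound, so the fitted difference below is given for its sign and not read as a fold. Its levels were −2.34, −2.74, −0.71 and −2.60 in COS and −1.54, −2.78, −1.16 and −2.48 in CES, with overlap and without a call. The signs for Notch1 and Notch3 turned under loess, quantile normalization, scaling over spots valid in all rats and the deposited log2 table, at 0.03 and 0.07 after loess. That for Notch2, 0.11 with a standard error of 0.31, turned under normexp correction (−0.14), without COS replicate 1 (−0.23) and without CES replicate 3 (−0.01).

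The ligands did not move together. Jag1, a ligand made by vascular cells, astrocytes and progenitors, had levels of 0.98, 0.42, 1.14 and 0.54 in COS and of 0.73, 0.11, 0.17 and −0.59 in CES. The CES rats tended to the lower end, with CES replicate 1 above COS replicates 2 and 4, so the groups overlapped. The difference was −0.66 with a standard error of 0.20, and Jag1 was called lower. The array of CES replicates 3 and 4 differed by −0.63 from that of CES replicates 1 and 2, nearly as much as the groups. Between the matching COS arrays the difference was 0.14. Set against the all-gene median the group difference of Jag1 was −0.41. After loess it was −0.18 and not called, and the call held in 11 of 23 limma settings. It was lost without any single COS rat and without CES replicate 3 or 4, with differences of −0.71 to −0.45. Dll1, the ligand of differentiating neighbors, had levels of −0.08, −0.70, −0.70 and −1.46 in COS and of −0.67, −1.88, 0.78 and −1.31 in CES. CES replicate 3 was the highest and CES replicate 2 the lowest of all 8 rats, and the difference was −0.03 with a standard error of 0.36. Dll3, a relative that acts inside the cell rather than as a ligand for neighbors, had levels of −0.11, −0.57, −0.12 and −0.998 in COS and of −0.31, −0.94, −0.34 and −0.94 in CES. Its difference was −0.18 with a standard error of 0.16 and turned to 0.10 after loess. Dll1 and Dll3 were not called under either scaling.

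**Figure D2:**
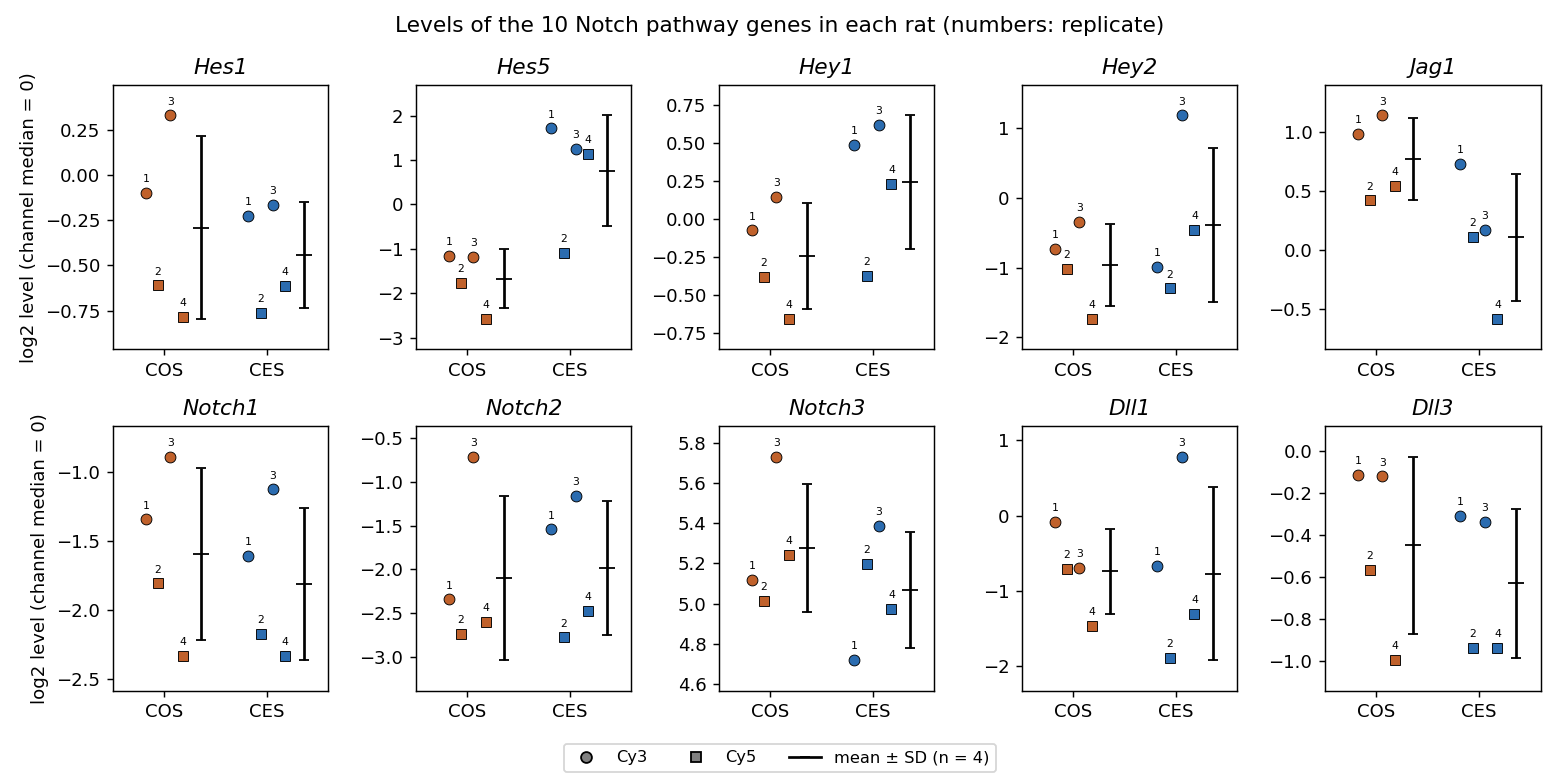
Log2 level (channel median at 0, separate vertical axis per gene) of the 10 Notch pathway genes in each rat, COS at left and CES at right, with circles for Cy3, squares for Cy5, the replicate number above each point and the mean and SD (n = 4) beside the points. Hes5 is the only panel in which all CES points lie above all COS points, and in Hes1, Notch1, Notch2, Dll1 and Dll3 every square lies below every circle.

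Normalization moved the whole set. Loess, run after normexp correction, gave a median of 0.04 over all gene names, where channel median scaling gave −0.25. With loess the shares called became 10.4% lower and 15.5% higher. Under loess 0 of the 10 genes were called lower and 2 higher, namely Hes5 and Hey1. Measured from the all-gene median of each fit, Hes5 stood at 2.68 and 1.57 and Hey1 at 0.74 and 0.52.

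**Figure D3:**
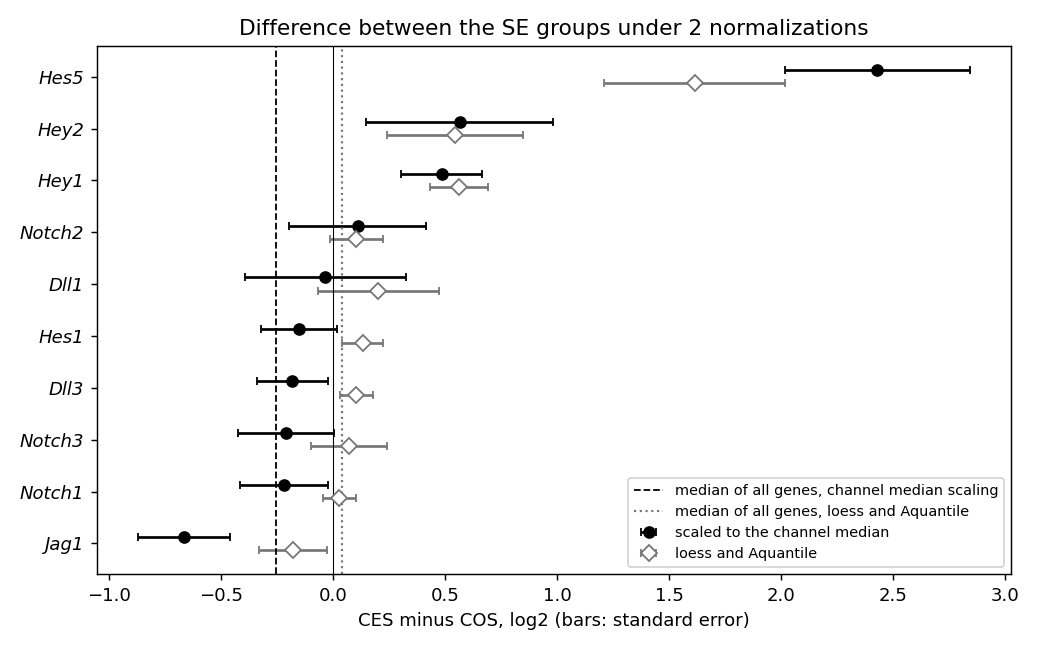
CES minus COS difference (log2) of the 10 genes with its standard error, under channel median scaling (filled circles) and after loess and Aquantile (open diamonds), with vertical lines at the median of all genes in each fit (−0.25 and 0.04). Hes5 lies right of every other gene under both, and Hes1, Dll3, Notch3, Notch1 and Dll1 cross 0 between them.

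Beyond the 10 genes, a list of 76 other genes of the pathway was written from general knowledge, of which 58 were on the array and 54 quantified in all rats. Of these 19 were called lower and 2 higher, with a median difference of −0.39 against −0.25 over all genes, so the share called lower was above the background of 28.3% and the share called higher below that of 5.79%, without a test of either. After loess the split was 5 lower and 6 higher, and the share called lower was then below that of all gene names (10.4%). Without COS replicate 3 the count called lower was 2, where 932 of all 21372 gene names were called lower, and the share of the list was again the smaller. The genes of ligand and receptor processing gave 7 lower and 0 higher of 15, and those of the nuclear complex 6 lower and 0 higher of 17, the latter share being near that of all gene names. After loess processing gave 3 lower and 0 higher, and the nuclear complex 1 lower and 2 higher.

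Rbpj, the DNA-binding partner of the Notch intracellular domain, was lower in CES, with all 4 CES rats below all 4 COS rats. Its levels were 2.06, 1.49, 2.14 and 1.32 in COS and 0.42, 0.76, 0.56 and −0.26 in CES. The difference was −1.38 with a standard error of 0.23 (limma adjusted p = 0.0044), and it was still called after loess at −0.77. Id1, a helix-loop-helix inhibitor of proneural factors, was lower by the largest amount of the list, with 3.77, 3.70, 3.98 and 3.32 in COS and 1.46, 2.62, 1.80 and 1.40 in CES. Its difference was −1.87 with a standard error of 0.28 (limma adjusted p = 0.0039), and loess gave −1.37, again called.

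Furin and Adam17, which can cut the receptor, were both called lower. Furin, which cleaves the receptor on its way to the surface, differed by −1.16 (standard error 0.25, limma adjusted p = 0.0089), with 1.71 to 2.45 in COS and 0.56 to 1.57 in CES. Adam17, a protease that can shed the receptor's outer part, differed by −1.05 (standard error 0.21, limma adjusted p = 0.0067). In both the CES rats lay below the COS rats without overlap, and both were called after loess as well, though not without COS replicate 3. Lfng, a glycosyltransferase that tunes the receptor's choice of ligand, differed by −1.27 (limma adjusted p = 0.022), with CES replicate 3 at −0.29 among the COS rats and the other CES rats at −2.14, −2.06 and −1.90. Notch4, the endothelial receptor, differed by −0.98 (limma adjusted p = 0.016), and Dtx4, a ubiquitin ligase of the Deltex family, by −0.94 (limma adjusted p = 0.035). Lfng, Notch4 and Dtx4 were not called after loess, nor without COS replicate 3 or CES replicate 1, and Lfng and Dtx4 not without COS replicate 4.

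The genes called higher were Neurod1, a proneural factor of granule neurons, at 1.16 (standard error 0.21, limma adjusted p = 0.0052), and Aak1, a kinase of endocytosis that binds Numb, at 0.59 (standard error 0.16, limma adjusted p = 0.022). Both were called higher after loess too, and the call for Aak1 was lost without COS replicate 1, 3 or 4 or CES replicate 1.

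**Figure D4:**
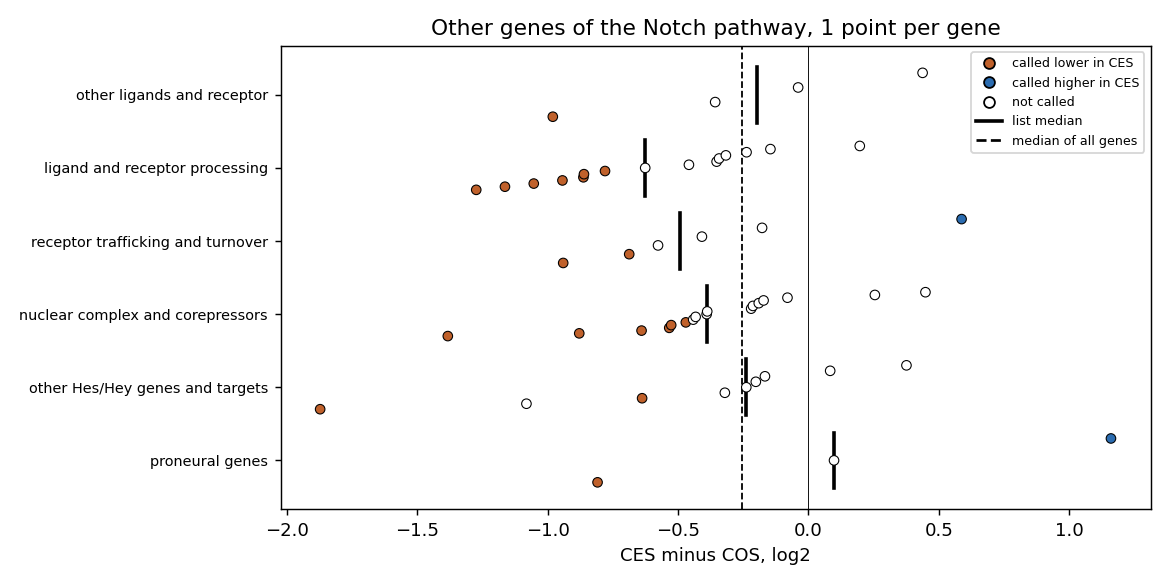
CES minus COS difference (log2) of the 54 other pathway genes quantified in all rats, 1 point per gene and grouped by role, colored by limma call, with a bar at each group's median and a dashed line at the median of all genes (−0.25). Points called lower lie mostly in ligand and receptor processing and in the nuclear complex, which are also the largest groups, with 15 and 17 genes. The points called higher are Aak1 and Neurod1.

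Markers of the cell types that the dissection could hold were listed beside these results, and their part in them was not tested. The tissue was labeled dentate gyrus. Prox1, a defining marker of its granule neurons, was not well above background in any rat. Of the same list, Calb1, C1ql2, Neurod1, Trpc6, Pdyn and Bcl11b were well above background in all 4 rats of each group. Dsp was so in 3 COS and 2 CES rats. All counts of markers below are to be read against the 28.3% of gene names called lower and 5.79% called higher, or 10.4% and 15.5% after loess. Of 7 quantified granule neuron markers 4 were called lower and 2 higher, and after loess 1 and 2. The count called lower was 0 without COS replicate 3 and 2 without CES replicate 1, and that called higher was 1 without COS replicate 3. Of 8 quantified CA1 and CA3 pyramidal neuron markers 0 were lower and 6 higher, also after loess, led by Pou3f1 at 2.23, and the log2 of their summed level was 5.35 to 6.19 in COS and 6.05 to 6.95 in CES. The count called higher was 2 without COS replicate 3 and 3 without CES replicate 1, and 1 marker was called lower without CES replicate 3. Markers of neurons in general gave 1 lower and 1 higher of 7 (1 and 5 after loess). Iyd of the CA1 and CA3 list and Pecam1 of the endothelial list were, like Prox1, not well above background in any rat.

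Astrocytes, which express Hes5, gave 2 markers lower and 5 higher of 12 (0 and 5 after loess). The largest difference was 2.27, for Gjb6, a gap junction gene. Of the 12 differences 5 were below 0. Those called lower were S100b at −2.22 and Fgfr3 at −0.57, and Gfap, at −1.19, was not called. The summed astrocyte level was 8.03 to 8.23 in COS and 8.02 to 8.77 in CES, with CES replicate 2 the lowest. Neural stem and progenitor markers gave 5 lower and 2 higher of 10 (2 and 3 after loess), and their summed level was 8.06 to 8.31 in COS, 7.88 in CES replicate 2 and 6.31 to 6.80 in the other CES rats. The list is led by Vim, an intermediate filament gene also made by reactive astrocytes and vascular cells, at −2.76, which was not called after loess. Signals were summed before the log2, so bright genes weigh most. Vim alone stood at 7.25 to 7.48 in COS and 3.58 to 7.05 in CES. Of the 10 differences 6 were below 0, and those of Sox2, Fabp7, Prom1 and Dcx were above it.

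Vascular cells express Notch3 and Jag1. Endothelial markers gave 5 lower and 1 higher of 9 (2 and 1 after loess), led by Vwf at −2.01, which loess left uncalled, and their summed level was 5.76 to 6.38 in COS and 4.73 to 5.84 in CES. Markers of pericytes and smooth muscle gave 5 lower and 2 higher of 9 (3 and 3 after loess), led by Tagln at −2.59, and their summed level was 5.95 to 6.66 in COS and 4.79 to 5.52 in CES without overlap. Microglial markers gave 5 lower and 1 higher of 10 (3 and 1 after loess), led by Cd68 at −2.19, and ependymal markers 4 lower and 0 higher of 5 (2 and 0 after loess), led by Foxj1 at −1.54. Oligodendrocyte lineage markers gave 1 lower and 0 higher of 10, and 0 of either after loess. None of the 8 quantified choroid plexus markers was called at an adjusted p under 0.05, and their summed level ran from 5.04 to 9.53 in COS alone.

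**Figure D5:**
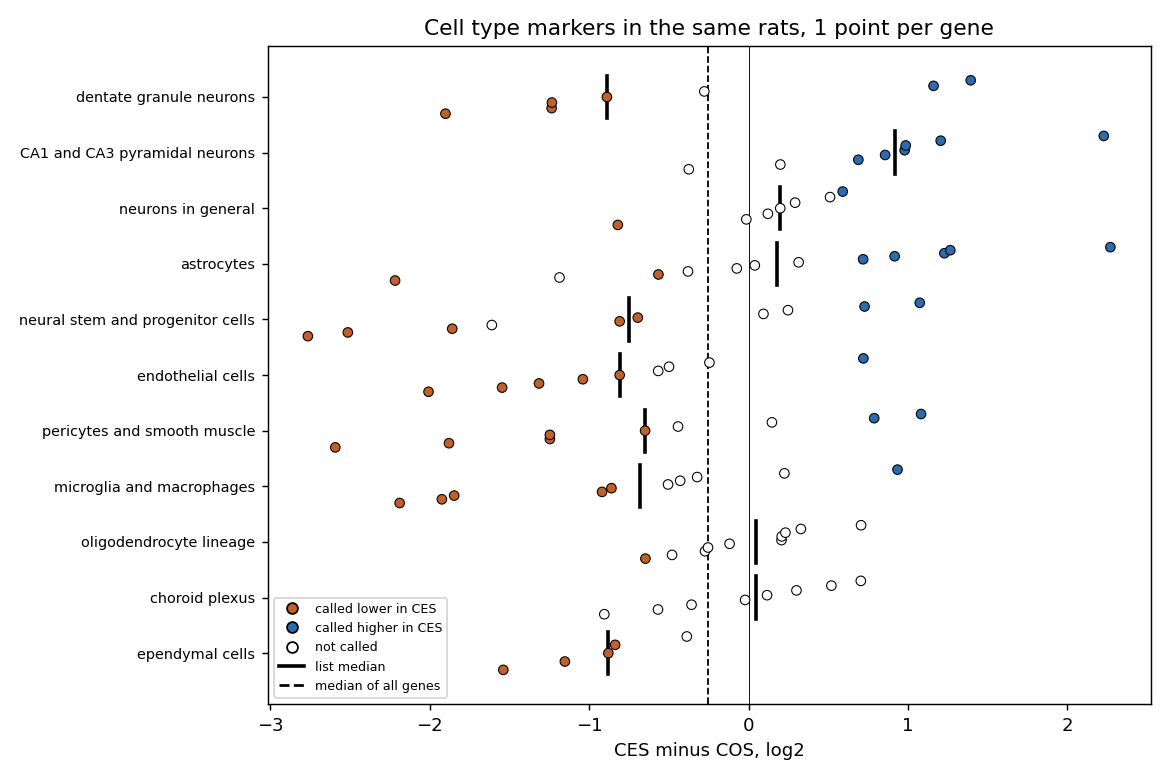
CES minus COS difference (log2) of cell type markers quantified in all rats, 1 point per gene, colored by limma call, with a bar at the median of each list and a dashed line at the median of all genes (−0.25). The CA1 and CA3 list lies to the right of the dashed line apart from 1 gene, and the vascular, microglial and ependymal lists have their medians to the left of it.

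Likeness over the 8 rats was read from residuals after group and dye, among 10686 gene names with a mean level above the median. The genes most like Hes5 were TC591910 (r = 0.996), Fndc5 (r = 0.995) and Capza2 (r = 0.990). Those most like Jag1 were Itsn2 (r = 0.990), Cep15 (r = 0.985), Bloc1s5 (r = 0.970) and Zfp511 (r = 0.955). Among the 10 genes the residuals of Hes5 and Hey1 correlated at 0.88 and those of Hey2 and Jag1 at −0.80. In both Hes5 and Hey1 the largest residuals were those of CES replicates 2 and 4, with opposite signs. These rats therefore weigh most in the correlations with Hes5. The rats share arrays and a single slide, and these values are descriptions over 8 points with few degrees of freedom left.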

How the data were processed

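Total RNA from 8 rats was hybridized to 4 two-color Agilent arrays, 1 rat per channel. The deposited scanner files, written by Agilent Feature Extraction 10.7.3.1 per the labels, give, per channel, spot and background intensity before normalization by the authors. The authors' deposited log2 table differs only by a constant per channel from log2 of the background-subtracted median signal. Each of its columns has a median of 0, and it served as an alternative. Groups, replicate numbers and dyes came from the sample labels. The replicates are separate rats, with 4 in each group.

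A spot was valid where its foreground was at least 2 times its background, which 74.6% to 88.9% of spots met in COS and 70.7% to 81.5% in CES. The background median was subtracted from the mean signal, and the result was scaled to the channel's median over valid spots, averaged over a gene's spots that were valid in every rat, and log2-transformed. No spot was saturated. The groups were compared with limma 3.58.1 (R 4.3.3, statmod 1.5.0), the model holding group and dye, and duplicateCorrelation carrying the array as a random block. Tests were two-sided, and p-values adjusted by Benjamini-Hochberg were called under 0.05. Without the array block 6009 gene names were called lower and 1222 higher, where the main fit gave 6054 and 1238. The estimated array correlation varied with the setting. It was −0.0065 in the main fit, 0.57 under normexp correction, 0.24 after loess and −0.12 with the processed signal. The median standard error of a difference was 0.20, and precision is limited by 4 arrays. The procedure was run on simulated data with a higher array correlation than the main fit estimated, so that run does not check the setting used here. Tables and plots were made in Python 3.11.15 with pandas 2.3.3, numpy 2.4.6 and matplotlib 3.10.9.

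Of 41012 probes 17512 were named through their RefSeq accession, and the others kept the name in the files. All spots of the 10 genes had an accession that gave the same symbol. Probe positions are those of rn4 in the files. Promoter windows are from RefSeq on GRCr8, and Hey1 had no entry there.

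The 10 genes, the lists of pathway genes and markers and the rules below were chosen with earlier results of these data known. All 10 genes are named. Of the pathway list, up to 8 called genes with the largest difference in each direction are named with their adjusted p. Some genes that these rules select are not reported here. Of each marker list that moved with the groups, the gene with the largest difference is named. For the likeness over rats, the genes with the largest differences among those well above background in at least 1 rat of each group were used. Alternatives in scaling were normexp correction with an offset of 50, the processed signal, quantile normalization and scaling over spots valid in all rats. Another was loess with Aquantile, which ran on signals after the same normexp correction. Others in the filter were leaving it out and requiring 3 times background or the well-above-background mark. In the model, others were dropping the array block or the dye and blocking on the replicate number. The rest were the brightest probe, other probe naming, the methods' t-test, the authors' log2 table, and each rat left out in turn.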

Additional observations from a re-analysis of the deposited data

Results flagged for a closer look

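Of 44 groups of 4 rats examined for a rat standing apart from the other 3, 2 were flagged, where chance flags about 5% of groups. Lfng in CES replicate 3 was at −0.29, against −2.14 to −1.90 in the other CES rats. Furin in COS replicate 4 was at 1.71, against 2.37 to 2.45 in the other COS rats.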

How the results depend on the processing

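Counts of called genes depended on the scaling and the test, and the cause was not tested. Among the 10 genes, 1 was called lower and 1 higher. The lower count was 0 under normexp correction, loess, quantile normalization, scaling over spots valid in all rats, no filter on spots, the methods' t-test and the deposited log2 table. The higher count was 0 under normexp correction and the methods' t-test and 2 under loess, quantile normalization, scaling over spots valid in all rats and the deposited table. Leaving out 1 rat in turn gave 0 to 1 lower and 1 to 2 higher, and the 2 came without CES replicate 2. Of the 54 other pathway genes 19 were called lower and 2 higher. Normexp correction gave 1 and 0, and loess and quantile normalization each 5 and 6. The deposited table gave 5 and 6 of 53 genes, and no filter 8 and 1 of 58. Scaling over spots valid in all rats gave 4 and 6, and the methods' t-test 0 and 0. Requiring a signal well above background in all rats gave 20 lower and 4 higher of 45 genes. Leaving out 1 rat gave 2 to 23 lower and 1 to 3 higher, with 2 lower without COS replicate 3, 7 without CES replicate 1, 11 without COS replicate 1 and 12 without COS replicate 2. The median over the 10 genes, −0.09, ran from −0.20 to 0.05 with 1 rat left out and was above 0 under loess (0.12), quantile normalization (0.29), scaling over spots valid in all rats (0.31) and the deposited table (0.29). Under normexp correction 1 granule neuron marker was called lower and 0 higher, and 2 CA1 and CA3 markers were called higher. Scaling over spots valid in all rats gave 1 granule neuron marker lower, and 2 were lower in the deposited table. Without a filter 2 of 8 granule neuron markers were lower and 3 of 9 CA1 and CA3 markers higher, and the methods' t-test called 0 of either list. By the methods' t-test 6114 of all gene names had an unadjusted p under 0.05 and 0 after adjustment, where limma called 6054 lower and 1238 higher, and normexp correction left 461 and 126. Of 222 refitted differences of single genes of the 10, 217 moved by less than 1 SD, 5 by more, and 0 called differences turned sign. Many of these refits could not move a difference. Dropping the array block or the dye, the replicate block and the methods' t-test leave it unchanged in this balanced layout. It was also unchanged with other probe naming and without a filter. The SD within groups includes the spread between dyes. Same-numbered rats of the groups share the dye, so their deviations correlated at 0.21 to 0.34, but at −0.28 to 0.08 after removal of the dye, and 1 of 8 rats correlated best with its own number. With the replicate block 1 of the 10 genes was lower and 1 higher, as without it. Hes5 could not be fitted with a foreground of 3 times background or with the well-above-background mark required in all rats. Signals near background limit Hes5 in COS, Notch1, Notch2 and the Hey2 probe at base 2284.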
